A study of Mus musculus with 6 samples.

Results

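The genes described here belong to the integrated stress response. The 10 genes were chosen by name from the table of 55401 genes. They are Atf4, Atf3, Ddit3, Ppp1r15a, Chac1, Sesn2, Trib3, Asns, Ddit4 and Hspa5. The name Ddit3 stood on 2 rows of the table, so that 11 rows matched. The second of these (ENSMUSG00000116429.1) had 0 counts in all 6 libraries and was not tested, while each of the 10 genes had a row that was tested. RNA came from sorted kidney endothelial cells (ECs, CD31+ CD45-) of male mice, with 1 library per mouse. The 3 CTRL mice were Cre-negative (Cre -/-) and the 3 RbpjΔEC mice (RbpjDEC in the labels) carried Cdh5CreERT2 (Cre +/-), and all 6 were homozygous for the floxed Rbpj allele (Rbpjf/f). CTRL and RbpjΔEC mice alike received tamoxifen (5 injections of 1.5 mg) from the age of 8 weeks, kidneys were taken 12 weeks after induction, and the labels give an age of 21 weeks. The Cdh5 promoter drives the Cre in ECs of every vessel type, lymphatics included, and no arterial, venous or capillary fraction was separated.

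In the integrated stress response, kinases that sense different stresses phosphorylate the translation initiation factor eIF2 on its alpha subunit. General protein synthesis then slows, while the mRNA of the transcription factor ATF4 is translated more. ATF4, partly together with CHOP (encoded by Ddit3) and ATF3, turns on genes of amino acid supply, of feedback onto eIF2 and of cell death. Because ATF4 is mainly controlled at translation, the amount of its mRNA is no measure of its protein. Chaperones of the endoplasmic reticulum (ER) such as the Hspa5 product answer to a related pathway, the unfolded protein response. Atf3 and Ppp1r15a are also known as genes that respond early to many stimuli, among them tissue dissociation.

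Promoter sequences are shown for genes of each arm that hold letters of a stress-responsive element. The 250 bases upstream and 50 downstream of each RefSeq start site were searched for TGATGNAA, the core of C/EBP-ATF response elements, and for the ER stress response element (ERSE, CCAAT and CCACG spaced by 9 bases). The cyclic AMP response element, TGACGTCA, was added later. Both strands were searched. No matches of different motifs overlapped in these genes. All 10 genes had a promoter window. TGATGNAA occurred in 4 of them (Atf3, Chac1, Asns and Trib3) and in 3.97% of 32841 promoters of the same length. The ER stress response element occurred in 1 (Hspa5) against 0.119% of the promoters, and TGACGTCA in 1 (Ppp1r15a) against 1.79%. The 250 bases before the start site are given 5′ to 3′ from RefSeq on GRCm38.p6, with the matched letters in capitals. TTGCATCA is TGATGCAA read on the other strand. The match in Trib3 lies downstream of the start site and is not printed. For Atf3, the RefSeq start lies within the gene as the other annotation draws it. A match is a description of the letters, and no binding was measured.
Atf3, chr1:191183334-191183583, strand minus: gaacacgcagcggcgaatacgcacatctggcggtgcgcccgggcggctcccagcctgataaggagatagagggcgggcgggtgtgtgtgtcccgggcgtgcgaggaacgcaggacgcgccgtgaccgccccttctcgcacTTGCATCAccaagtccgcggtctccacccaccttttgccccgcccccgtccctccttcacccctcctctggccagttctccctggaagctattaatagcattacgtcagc
Chac1, chr2:119350992-119351241, strand plus: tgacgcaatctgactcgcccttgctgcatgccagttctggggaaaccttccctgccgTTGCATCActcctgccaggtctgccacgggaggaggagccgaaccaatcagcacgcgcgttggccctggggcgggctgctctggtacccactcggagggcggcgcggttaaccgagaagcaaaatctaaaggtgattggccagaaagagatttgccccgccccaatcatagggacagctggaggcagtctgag
Asns, chr6:7693210-7693459, strand minus: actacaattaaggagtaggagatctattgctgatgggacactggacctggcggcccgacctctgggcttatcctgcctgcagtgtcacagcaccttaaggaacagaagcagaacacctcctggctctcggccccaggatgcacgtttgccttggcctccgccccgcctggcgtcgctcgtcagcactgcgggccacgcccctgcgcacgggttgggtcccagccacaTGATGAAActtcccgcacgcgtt
Ppp1r15a, chr7:45526269-45526518, strand minus: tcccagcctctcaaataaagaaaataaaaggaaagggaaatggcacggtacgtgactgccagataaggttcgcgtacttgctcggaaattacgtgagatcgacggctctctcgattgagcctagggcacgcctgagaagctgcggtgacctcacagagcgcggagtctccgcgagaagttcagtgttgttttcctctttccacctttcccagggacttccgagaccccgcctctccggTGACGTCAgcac
Hspa5, chr2:34771840-34772089, strand plus: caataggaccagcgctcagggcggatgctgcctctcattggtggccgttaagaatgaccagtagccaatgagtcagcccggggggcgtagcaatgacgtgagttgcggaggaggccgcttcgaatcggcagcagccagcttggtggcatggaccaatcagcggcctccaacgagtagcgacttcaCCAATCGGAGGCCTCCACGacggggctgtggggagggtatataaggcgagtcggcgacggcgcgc

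The total counts on genes were between 39649171 and 47726850 per library, and a floor of 3 counts was between 0.0634 and 0.0749 CPM (the count of a gene scaled to a common library size, with edgeR's TMM factors). The lowest count of any of the 10 genes was 281 (Asns), so counting error was small, from 0.674% of the mean count for Hspa5 to 5.13% for Asns. In CTRL 1, 33764 genes had at least 1 count, while the remaining libraries had 25629 to 26785 such genes. Rbpj averaged 29.2 CPM in CTRL (SD 0.964, n = 3) against 28.2 CPM in RbpjΔEC (SD 1.86, n = 3). Its log2 fold change of -0.05 (adjusted p = 0.793 from edgeR) turned to 0.0013 without RbpjΔEC 2. The counts cover the whole gene and not the floxed part alone, so this level does not check the labels. The EC markers were present at 15186 to 16765 CPM summed over 10 genes in CTRL and at a lower 13775 to 14576 CPM in RbpjΔEC, without overlap. Of these 10 markers 7 lay below 0, with a median log2 fold change of -0.16. By the adjusted p in edgeR 0 were called (1.13% of all tested genes). Without overlap between the groups, 3 were lower and 0 higher, against 11.6% and 11.4% of all tested genes.

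The genes of the transcription factors and of the eIF2 feedback had higher levels in every RbpjΔEC library than in any CTRL library, while Asns, Trib3, Ddit4 and Hspa5 overlapped between the groups. Atf3 and Ppp1r15a rose past an adjusted p of 0.05 (edgeR's quasi-likelihood test on 3 libraries against 3, Benjamini-Hochberg adjustment over all 18438 tested genes). That is 2 of the 10 genes, against 0.575% of all tested genes called higher and 1.13% called in either direction. No member was called lower (0 of 10, against 0.559% of all tested genes; 0 as well at an unadjusted p under 0.05 and with DESeq2's Wald test). At an unadjusted p under 0.05, 6 of the 10 genes were higher (8.88% of all tested genes), and in these 6 every RbpjΔEC library lay above every CTRL library, which held for 11.4% of all tested genes. The 6 are Atf4, Atf3, Ddit3, Ppp1r15a, Chac1 and Sesn2. The median log2 fold change over the 10 genes was 0.40, against 0.01 over all tested genes, and 8 of the 10 lay above 0, against 51.1% of all tested genes. Without 1 library in turn this median was between 0.29 (without RbpjΔEC 2) and 0.42 (without RbpjΔEC 1), and it was 0.30 without CTRL 1. CTRL 1 had the lowest level of all libraries for Atf4, Ddit3, Ppp1r15a, Chac1 and Sesn2. Without 1 library in turn, the log2 fold change was between 0.478 and 0.698 for Atf3 and between 0.373 and 0.514 for Ppp1r15a. Whether a lost call came from the smaller sample or from the library left out was not tested. The number of the 10 genes called changed with the library left out. It was 0 without CTRL 1, CTRL 3, RbpjΔEC 1 or RbpjΔEC 2, where 17, 7, 8 and 18 of all genes were called higher. It was 3 without CTRL 2 or RbpjΔEC 3, where 401 and 188 of all genes were called higher. It was also 3 with library size alone (159 of all genes) or DESeq2's Wald test (262), and 6 with no filter on low counts (717), against 106 of all genes with all libraries and the filter.

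**Figure D1:**
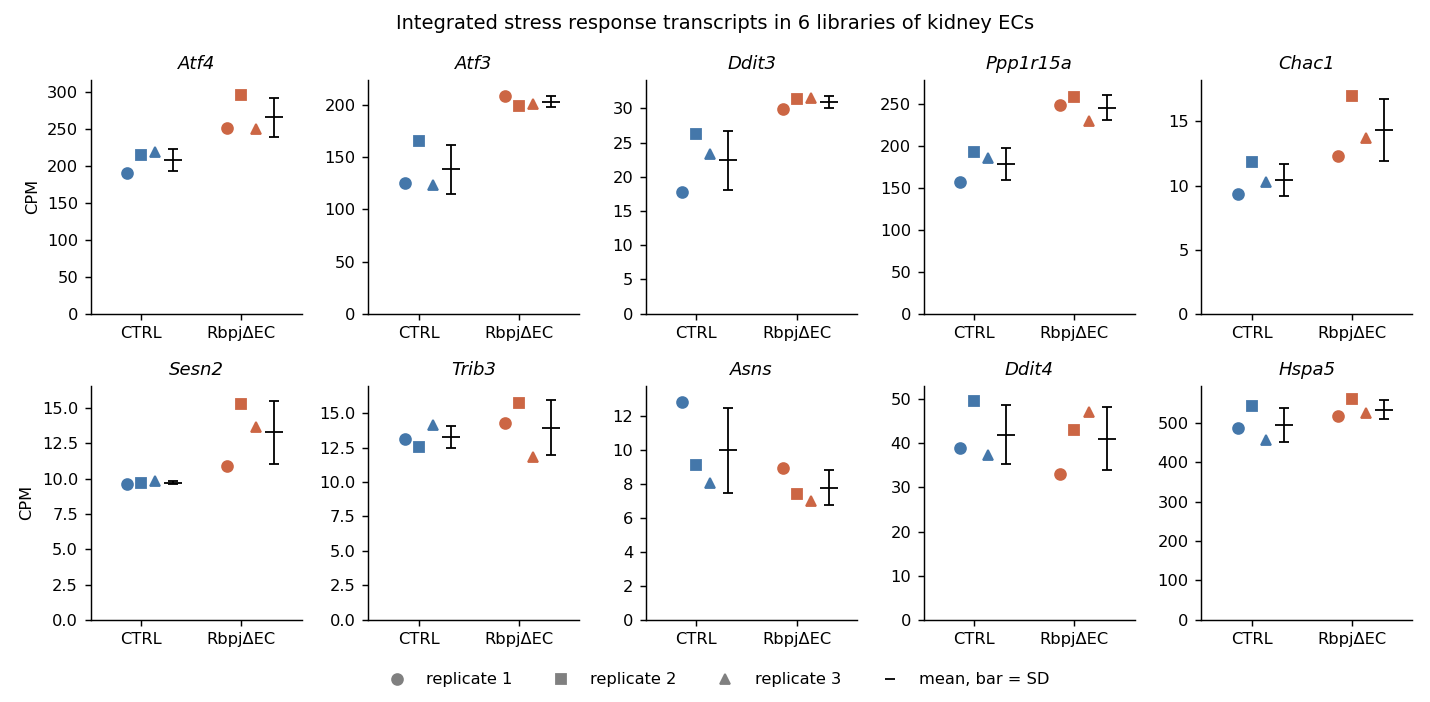
CPM of the 10 genes in each library (y axis, from 0) for CTRL (blue) and RbpjΔEC (orange), with the marker shape giving the replicate number and the black bar the mean and SD of 3 libraries. The groups are separate for Atf4, Atf3, Ddit3, Ppp1r15a, Chac1 and Sesn2 and overlap for Trib3, Asns, Ddit4 and Hspa5.

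Atf4 (ENSMUSG00000042406.8, chromosome 15 of GRCm38 from 80255184 to 80257541) encodes the factor at the centre of the response. Its level was 191, 215 and 219 CPM in CTRL 1 to 3 and 251, 296 and 249 CPM in RbpjΔEC 1 to 3. The lowest RbpjΔEC library lay above the highest CTRL library. The log2 fold change of Atf4 was 0.35 (standard error 0.0855, 95% interval 0.165 to 0.538), and its adjusted p from edgeR was 0.0729. It passed with DESeq2's Wald test (adjusted p = 0.0240) and, in edgeR, with library size alone (0.0478), with no filter on low counts (0.000338) and without RbpjΔEC 3 (0.0407).

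Atf3 (ENSMUSG00000026628.13, chromosome 1 from 191170296 to 191218039) encodes a bZIP factor that is induced downstream of ATF4 and by many other stimuli. It had 126, 166 and 124 CPM in CTRL 1 to 3 and 209, 199 and 201 CPM in RbpjΔEC 1 to 3. CTRL 2 was the highest of the controls and still below all RbpjΔEC libraries, which lay close together (138 ± 23.6 CPM in CTRL and 203 ± 5.15 CPM in RbpjΔEC, SD, n = 3). Atf3 rose by 0.55 on the log2 scale, or 1.47-fold, with a standard error of 0.104 and an adjusted p of 0.0387 from edgeR. Its adjusted p from edgeR was 0.00165 without CTRL 2 and 0.0350 without RbpjΔEC 3, and it missed the threshold when CTRL 1 (0.127), CTRL 3 (0.147), RbpjΔEC 1 (0.163) or RbpjΔEC 2 (0.109) was left out.

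Ddit3 (ENSMUSG00000025408.15, chromosome 10 from 127290774 to 127296288) encodes CHOP, a factor associated with cell death under lasting stress. Its level was 17.7, 26.2 and 23.3 CPM in CTRL 1 to 3 and 29.9, 31.3 and 31.6 CPM in RbpjΔEC 1 to 3. The controls were spread over a 1.48-fold range and the RbpjΔEC libraries over a 1.06-fold range, with no overlap. The log2 fold change of Ddit3 was 0.46 (standard error 0.126, 95% interval 0.186 to 0.741), and it did not pass (adjusted p = 0.0996 from edgeR). It passed without CTRL 2 (adjusted p from edgeR 0.0299) and with no filter on low counts (0.000703). Ddit3 shares 68 exonic bases with Mars1 on the opposite strand, and the strand setting of the counting is not given in the sources used here. Mars1, a methionyl-tRNA synthetase gene named here after its values were seen, had a log2 fold change of -0.11 (adjusted p = 0.581 from edgeR).

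Ppp1r15a (ENSMUSG00000040435.12, chromosome 7 from 45522916 to 45526268) encodes GADD34, which brings a phosphatase to eIF2 and so ends the response. It had 157, 193 and 186 CPM in CTRL 1 to 3 and 249, 259 and 229.7 CPM in RbpjΔEC 1 to 3. All RbpjΔEC libraries lay above all controls (179 ± 19.0 CPM in CTRL and 246 ± 15.0 CPM in RbpjΔEC, SD, n = 3). Ppp1r15a rose by 0.46 on the log2 scale, with a standard error of 0.0861 and an adjusted p of 0.0324 from edgeR. Leaving out CTRL 1 (adjusted p from edgeR 0.107), CTRL 3 (0.108), RbpjΔEC 1 (0.145) or RbpjΔEC 2 (0.114) ended the call.

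Chac1 (ENSMUSG00000027313.3, chromosome 2 from 119351229 to 119354381) encodes an enzyme that degrades glutathione and is induced by ATF4 and CHOP. Its level was 9.33, 11.8 and 10.3 CPM in CTRL 1 to 3 and 12.3, 17.0 and 13.7 CPM in RbpjΔEC 1 to 3. The gap between CTRL 2 and RbpjΔEC 1, the nearest libraries of the groups, was small. Chac1 had a log2 fold change of 0.45 (95% interval 0.138 to 0.768), short of the threshold (adjusted p = 0.137 from edgeR). Dll4, which encodes a Notch ligand, ends 15267 bases upstream of Chac1 on the same strand and had a mean count of 21829 against 530.0 for Chac1. Its own log2 fold change was 0.22 (adjusted p = 0.162 from edgeR), and its part in the Chac1 counts was not tested.

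Sesn2 (ENSMUSG00000028893.8, chromosome 4 from 132492032 to 132510501) encodes a leucine sensor that restrains the growth kinase complex mTORC1. It had 9.60, 9.70 and 9.85 CPM in CTRL 1 to 3 and 10.9, 15.3 and 13.7 CPM in RbpjΔEC 1 to 3. The controls hardly differed from each other, and the spread lay in the RbpjΔEC libraries (SD 0.125 CPM in CTRL and 2.21 CPM in RbpjΔEC, n = 3). Its log2 fold change was 0.45 (95% interval 0.151 to 0.749, adjusted p = 0.124 from edgeR). Chac1 and Sesn2 passed in 0 of the 6 fits that left out 1 library and, of the other alternatives, in the fit with no filter on low counts.

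The remaining 4 genes overlapped between the groups, and their intervals bound how far they could differ. Trib3 (ENSMUSG00000032715.9, chromosome 2 from 152337422 to 152344032), a pseudokinase gene that ATF4 and CHOP induce and that restrains ATF4, had 13.1, 12.5 and 14.2 CPM in CTRL 1 to 3 and 14.3, 15.8 and 11.8 CPM in RbpjΔEC 1 to 3. Its log2 fold change was 0.07 (95% interval -0.205 to 0.349, adjusted p = 0.805 from edgeR). Asns (ENSMUSG00000029752.12, chromosome 6 from 7675169 to 7693254), which encodes asparagine synthetase and is a classical ATF4 target, had 12.8, 9.10 and 8.05 CPM in CTRL 1 to 3 and 8.94, 7.39 and 7.01 CPM in RbpjΔEC 1 to 3. Its highest value was in CTRL 1, and all but RbpjΔEC 1 of the mutant libraries lay below every control. Asns had a log2 fold change of -0.36 (95% interval -0.758 to 0.0412, adjusted p = 0.335 from edgeR), and -0.14 without CTRL 1.

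Ddit4 (ENSMUSG00000020108.4, chromosome 10 from 59949669 to 59951834) encodes REDD1, an inhibitor of mTORC1 that ATF4, glucocorticoids and hypoxia all induce. It had 38.9, 49.7 and 37.4 CPM in CTRL 1 to 3 and 33.2, 43.0 and 47.1 CPM in RbpjΔEC 1 to 3, with highs and lows in each group. Its log2 fold change of -0.03 (95% interval -0.364 to 0.297, adjusted p = 0.932 from edgeR) changed sign with library size alone and without CTRL 2 or RbpjΔEC 1 (0.10 in each of these 2 fits). Lists of 9 glucocorticoid-responsive and 10 hypoxia-responsive genes had medians of -0.03 (0.0086 with library size alone) and 0.12, with 0 genes past the threshold in DESeq2 or, with all libraries and the low-count filter, in edgeR (unadjusted p under 0.05 in edgeR for 0 and for 2 lower genes). In the first list, edgeR called 1 gene higher with no filter on low counts and 1 lower without RbpjΔEC 3. The smallest p in these lists belonged to Errfi1 (log2 fold change 0.31, adjusted p = 0.348 from edgeR) and Bnip3 (-0.43, adjusted p = 0.232 from edgeR). Without RbpjΔEC 3 the median of the first list was -0.41, and without CTRL 1 that of the second was -0.0046.

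Hspa5 (ENSMUSG00000026864.13, chromosome 2 from 34771970 to 34777547) encodes BiP, the main chaperone of the ER lumen and the sensor-binding protein of the unfolded protein response. It was the most abundant of the 10 genes, with 487, 542 and 457 CPM in CTRL 1 to 3 and 517, 561 and 525 CPM in RbpjΔEC 1 to 3. CTRL 2 lay within the range of the RbpjΔEC libraries. Hspa5 differed by 0.11 on the log2 scale (95% interval -0.0641 to 0.280, adjusted p = 0.508 from edgeR).

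**Figure D2:**
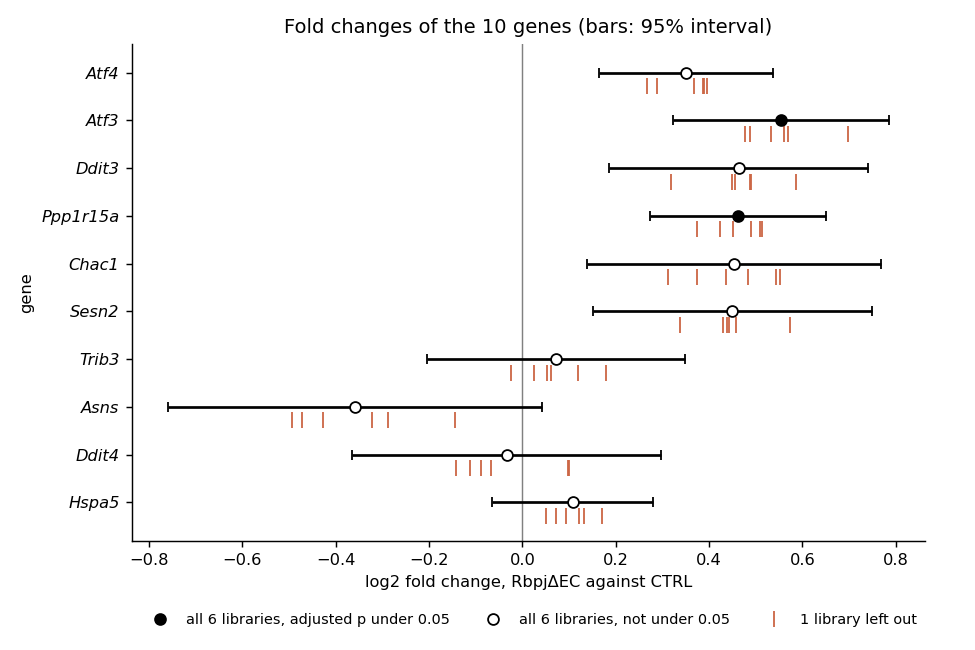
Log2 fold change of each gene between RbpjΔEC and CTRL (x axis) with its 95% interval from edgeR, filled where the adjusted p was under 0.05, and orange ticks for the 6 fits that each left out 1 library. Atf3 (0.55) and Ppp1r15a (0.46) are filled, and the ticks of Ddit4 and Trib3 lie on both sides of 0.

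An exact permutation p (two-sided) of 3 libraries against 3 cannot go below 0.1, and every gene whose groups do not overlap has that value. For the 6 separated genes it therefore only restates the separation, which 11.4% of all tested genes showed as higher. Per kilobase of exon, the levels fell from Hspa5 (mean 122 CPM per kb over the 6 libraries) over Atf4 (100.4), Atf3 (79.3), Ppp1r15a (72.3), Ddit4 (23.7), Ddit3 (15.6), Chac1 (7.57), Trib3 (6.40) and Sesn2 (3.31) to Asns (3.25). The ranges over the libraries were separate between Ppp1r15a and Ddit4, between Ddit4 and Ddit3, and between Trib3 and Sesn2. All other neighbours in this order overlapped. Over the 6 libraries, genes whose log2 CPM went closely with that of Atf4 were Rhebl1, Ier3, Prpsap1 and Cnot3 (Pearson r 0.99 each, among 10441 genes of at least 5 CPM). Of the 10 genes, Ppp1r15a (r = 0.95), Chac1 (0.95), Sesn2 (0.89), Ddit3 (0.88) and Atf3 (0.80) had the highest values, Hspa5 had 0.64, Trib3 0.51 and Ddit4 0.04, and Asns ran opposite (-0.77). These r values are a description over 6 points that share the genotype contrast, and 2.35% of the compared genes had an r above 0.9.

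For the further lists of the pathway, the counts are to be read against all tested genes, of which 0.575% were called higher and 0.559% lower, while an unadjusted p under 0.05 was reached by 8.88% as higher and by 8.62% as lower. Of 17 tested genes for eIF2, its kinases, its exchange factor eIF2B and its phosphatases, 0 passed in DESeq2 or, with all libraries and the low-count filter, in edgeR (unadjusted p under 0.05 for 3 higher and 0 lower genes). With no filter edgeR called 1 higher. The median log2 fold change of -0.01 became 0.031 with library size alone and was between -0.017 and 0.028 without 1 library in turn, above 0 without CTRL 1 or any 1 of the RbpjΔEC libraries. Among the kinases, the log2 fold change was 0.19 for Eif2ak4 (GCN2, which senses uncharged tRNA; adjusted p = 0.241 from edgeR), 0.15 for Eif2ak2 (PKR, which senses double-stranded RNA), -0.12 for Eif2ak3 (PERK, the ER sensor) and -0.10 for Eif2ak1 (HRI, the heme sensor). For Eif2ak4 and Eif2ak2 the groups did not overlap. In the whole list, 4 of the 17 genes were higher and 2 lower without overlap, against 11.4% and 11.6% of all tested genes. Ppp1r15b, the constitutive counterpart of Ppp1r15a, averaged 139.6 CPM in CTRL (SD 6.57, n = 3) against 138.6 CPM in RbpjΔEC (SD 8.80, n = 3), a log2 fold change of -0.01. The smallest p in the list belonged to Ppp1cc, a catalytic subunit of the phosphatase (0.35, adjusted p = 0.0776 from edgeR).

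Of 19 tested partners and further targets of ATF4 and CHOP, 6 were above and 13 below 0, with a median of -0.12. The median was -0.018 without RbpjΔEC 1 and -0.176 without RbpjΔEC 3. With all libraries and the low-count filter, 0 genes of this list passed in edgeR (unadjusted p under 0.05 for 3 higher and 1 lower gene), and 0 passed in DESeq2. In edgeR 2 were called higher and 1 lower with no filter, 1 higher without CTRL 2 and 1 lower without RbpjΔEC 3. Tnfrsf10b, the death receptor that CHOP induces, had the smallest p (log2 fold change 0.30, adjusted p = 0.102 from edgeR). Of 18 genes for amino acid transport and synthesis, 9 lay on each side of 0 and the median was -0.03. In edgeR 1 was called higher and 0 lower (unadjusted p under 0.05 for 3 higher and 3 lower genes), and 2 were called higher with DESeq2's Wald test, with no filter on low counts or without CTRL 2 (262, 717 and 401 of all genes). The gene called in edgeR was Slc7a5, which encodes the large neutral amino acid transporter LAT1. It had 5.14, 6.42 and 4.71 CPM in CTRL 1 to 3 and 8.81, 10.5 and 8.76 CPM in RbpjΔEC 1 to 3, with no overlap. Slc7a5 rose by 0.78 on the log2 scale, with a standard error of 0.165 and an adjusted p of 0.0468 from edgeR. The call was lost when CTRL 1 (adjusted p from edgeR 0.157), CTRL 3 (0.179), RbpjΔEC 1 (0.157) or RbpjΔEC 2 (0.147) was left out. Of 13 tested aminoacyl-tRNA synthetases and Xpot, 12 were below 0, with a median of -0.07 and 0 genes past the threshold in DESeq2 or, with all libraries and the low-count filter, in edgeR (unadjusted p under 0.05 for 1 higher and 2 lower genes). Without CTRL 2, edgeR called 1 higher. Wars had the smallest p there (log2 fold change -0.24, adjusted p = 0.114 from edgeR).

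Most genes of ER folding had lower values in RbpjΔEC. Of 25 tested sensors and chaperones of the unfolded protein response, 22 were below 0, with a median log2 fold change of -0.16 (-0.25 without CTRL 2). At an unadjusted p under 0.05, 13 were lower and 0 higher, against 8.62% of all tested genes called lower at that level, and 1 was called lower by the adjusted p, against 0.559% of all tested genes. This was Pdia3, which encodes a disulfide isomerase for glycoproteins. Its level was 385, 356 and 409 CPM in CTRL 1 to 3 and 289, 316 and 288 CPM in RbpjΔEC 1 to 3, with no overlap. Pdia3 fell by 0.36 on the log2 scale (standard error 0.0755, adjusted p = 0.0459 from edgeR). It did not pass with library size alone (adjusted p from edgeR 0.0612) and, of the 6 fits that left out 1 library, passed only without CTRL 2 (0.0188), with values up to 0.198 without RbpjΔEC 1. DESeq2's Wald test called 4 genes of this list lower, against 322 of all genes. In edgeR 6 were called lower with no filter on low counts and 3 without CTRL 2, against 719 and 299 of all genes. Summed over the list, the level was 3847 to 4106 CPM in CTRL and 3302 to 3582 CPM in RbpjΔEC.

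**Figure D3:**
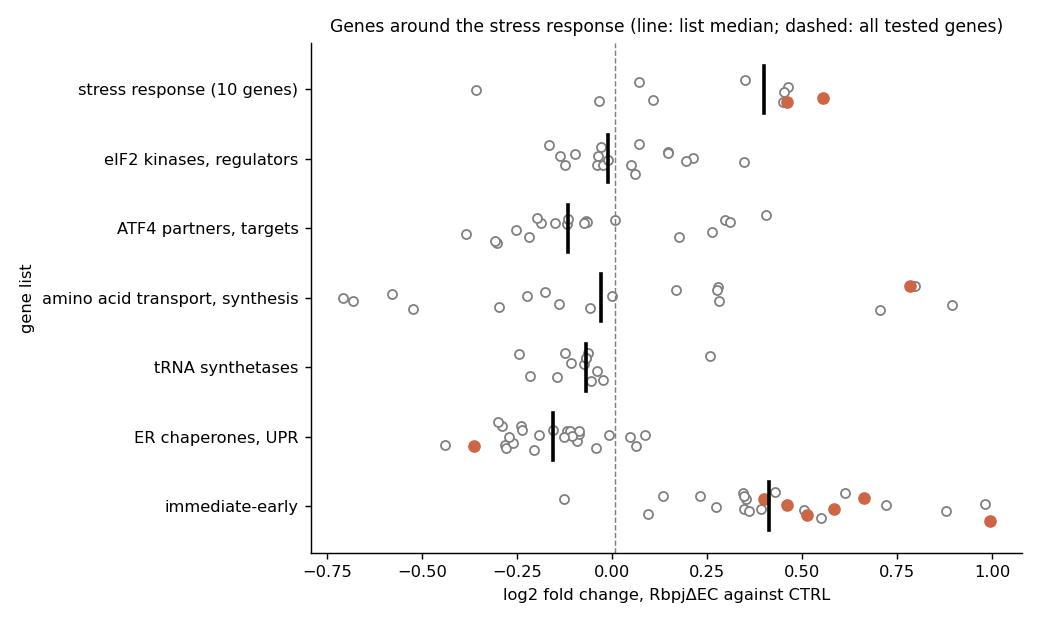
Log2 fold change (x axis) of every tested gene in 7 lists, with orange points for an adjusted p under 0.05 from edgeR, a black line at each list's median and a dashed line at the median of all tested genes. The medians are 0.40 for the 10 genes and 0.41 for the immediate-early list, and -0.16 for the ER chaperone list.

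Immediate-early genes, which are transcribed within minutes of many stimuli, had higher values in RbpjΔEC. Of 24 tested, 23 were above 0, against 51.1% of all tested genes, with a median log2 fold change of 0.41 (0.54 without CTRL 2). By the adjusted p in edgeR 6 were called higher and 0 lower, against 0.575% of all tested genes called higher. The 4 of smallest p were Egr1, a zinc finger factor (log2 fold change 0.66), the antiproliferative gene Btg2 (0.58), Egr3 (1.00) and Fos (0.46). In the fits that left out 1 library, the number that passed was 0 without CTRL 3, 1 without CTRL 1, RbpjΔEC 1 or RbpjΔEC 2, 10 without CTRL 2 and 12 without RbpjΔEC 3. Over all genes, these fits called 7 higher without CTRL 3, between 8 and 18 without CTRL 1, RbpjΔEC 1 or RbpjΔEC 2, 401 without CTRL 2 and 188 without RbpjΔEC 3. DESeq2's Wald test called 13 genes of this list higher, against 262 of all genes, and edgeR called 15 with no filter on low counts, against 717 of all genes. With the filter, 106 of all genes were called higher. The list summed to 6730 to 7897 CPM in CTRL and 8871 to 10577 CPM in RbpjΔEC. Each library was also set against the CTRL average in log2(CPM + 0.5). The median of the 10 stress response genes was then -0.11, 0.12 and -0.0014 for CTRL 1, 2 and 3, and 0.20, 0.50 and 0.32 for RbpjΔEC 1, 2 and 3. For the immediate-early list these medians were -0.08, 0.19 and -0.13 for CTRL 1, 2 and 3, against 0.47, 0.51 and 0.31 for RbpjΔEC 1, 2 and 3. CTRL 2 was the highest control in both lists. The part of a common early response in the values of Atf3 and Ppp1r15a was not tested. Cells of all 6 mice were dissociated and sorted.

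**Figure D4:**
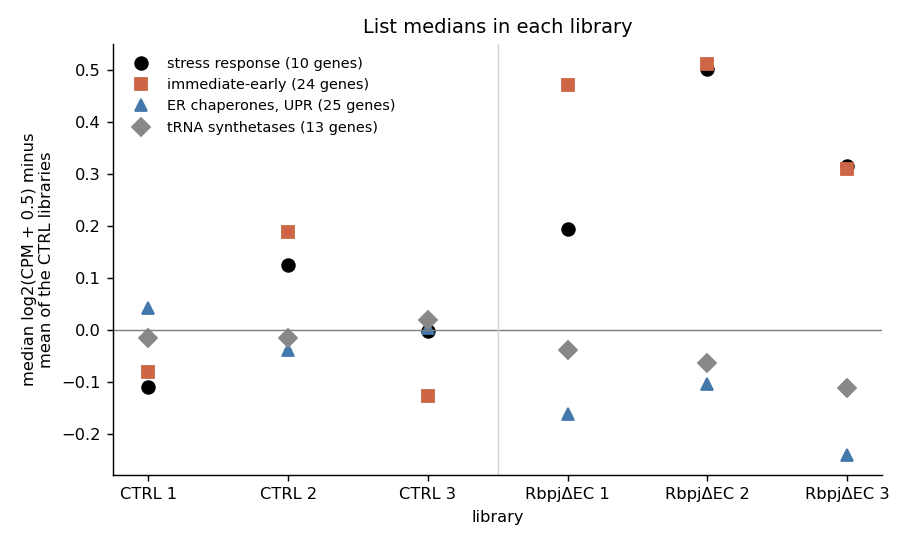
Median of each list in each library (y axis, log2(CPM + 0.5) minus the mean of the CTRL libraries) for the 10 stress response genes, the immediate-early, the ER chaperone and the tRNA synthetase lists. In RbpjΔEC the stress response medians (0.20, 0.50 and 0.32) and immediate-early medians are above every CTRL value of the same list, and the ER chaperone medians lie below them.

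Markers of other cells also differed between the groups. Smooth muscle and pericyte markers (8 genes) summed to 80.8 to 105.9 CPM in CTRL and 34.04 to 53.2 CPM in RbpjΔEC. All 7 that were tested lay below 0, and 3 fell by the adjusted p in edgeR, against 0.559% of all tested genes. These were the contractile genes Acta2 (log2 fold change -1.30, adjusted p = 0.0369) and Myh11 (-1.08, 0.0468) and the pericyte gene Rgs5 (-0.88, 0.0468). Fibroblast markers (5 genes, with Lum at no more than 3 counts) summed to 4.16 to 6.41 CPM against 1.24 to 2.57 CPM, and of the 2 tested genes Pdgfra, a growth factor receptor gene, fell (log2 fold change -1.67, adjusted p = 0.0468 from edgeR). Tubule markers (8 genes) overlapped, with 279 to 415 CPM in CTRL and 107 to 397 CPM in RbpjΔEC. Podocyte markers (4 genes, among them Podxl, which ECs also express) summed to 2989 to 3384 CPM against 2405 to 2682 CPM. Leukocyte markers (10 genes) summed to 15.5 to 18.6 CPM against 23.96 to 29.5 CPM. Of the 5 tested, 3 lay below 0, the median log2 fold change was -1.25, and an unadjusted p under 0.05 was reached by 1 higher gene and 2 lower ones. The macrophage gene Cd68 rose by 1.27 on the log2 scale (adjusted p = 0.0154 from edgeR) and the pan-leukocyte gene Ptprc had a log2 fold change of -1.44 (adjusted p = 0.188 from edgeR), with Cd3e at 0 and Cd3g at no more than 3 counts. Without RbpjΔEC 1 the calls of Acta2, Myh11, Rgs5, Pdgfra and Cd68 were lost (adjusted p from edgeR 0.0645 to 0.186). The 4 genes that fell were lost without CTRL 1 (0.0956 to 0.147), all 5 but Rgs5 without CTRL 3 (0.0917 to 0.173), Cd68, Rgs5 and Pdgfra without RbpjΔEC 2 (0.0681 to 0.135), and Rgs5 without CTRL 2 (0.0599). Rgs5 was also lost with library size alone (0.0553), and both Myh11 (0.0506) and Rgs5 (0.0523) with a filter of at least 1 CPM in 3 libraries. The part of these cells in the stress response values was not tested, and in bulk RNA fewer cells of a type cannot be told apart from less RNA per cell.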

How the data were processed

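The authors sequenced stranded total RNA libraries of sorted kidney ECs and processed them with nf-core/rnaseq. Per the labels, the submitters' processing notes name Trim Galore 0.6.4, STAR 2.6.1d and featureCounts of Subread 1.6.4, with GRCm38.p6. The deposited values are raw counts per gene without normalization. A strand setting for the counting is not given in the sources used here. Replicates are separate mice. With 3 libraries per group, the p-values set the group difference against the spread between mice. In edgeR that spread is estimated for each gene with information from all tested genes.

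Counts were analysed in R 4.3.3 with edgeR 4.0.16 (filterByExpr, TMM, estimateDisp, glmQLFit with robust estimation, glmQLFTest) and Benjamini-Hochberg adjustment over 18438 tested genes at a threshold of 0.05. Log2 CPM for the likeness to Atf4 used a prior count of 2. Each standard error is the absolute log2 fold change divided by the square root of the quasi-likelihood F statistic, and gives the 95% interval. The code was tested on simulated counts. As the alternative tool, DESeq2 1.42.0 had its outlier and independent filtering off, as in the study. Other alternatives changed the normalization, the low-count filter, the replicate block and the libraries included. GENCODE M21 (GRCm38) gave positions and exon lengths and contains the IDs of 18411 tested genes, while the authors counted on M25. Promoters came from RefSeq (GRCm38.p6).

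The 10 genes and the lists were chosen with earlier results of these data known. Genes named outside the 10 were those past the threshold (up to 4 of smallest p per direction) or, where none passed, the gene with the smallest p of each list, the eIF2 kinases with Ppp1r15b, the 5 genes most like Atf4 (1 of which is not reported here), and a neighbour with a higher mean count than the member or past the threshold. For the cell type markers only summed levels and genes past the threshold were to be named, and Ptprc, Lum, Podxl, Cd3e and Cd3g were named after their values were seen. Intervals and floors cover counting error and the spread of these libraries only.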

Additional observations from a re-analysis of the deposited data

How the results depend on the processing

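Of the 10 genes, 8 kept the direction of their difference under all 12 alternatives. Ddit4 reversed with library size alone (0.0074) and without CTRL 2 or RbpjΔEC 1, and was between -0.143 and 0.0989 without 1 library in turn. Trib3 reversed without RbpjΔEC 2 and was between -0.0238 and 0.18 and Rbpj was between -0.0888 and 0.0013 without 1 library in turn. Without 1 library in turn, between 0 and 3 of the 10 genes were called higher, and over all genes between 7 and 401 were called higher and between 13 and 333 lower, against 106 and 103 with all libraries. With no low-count filter 6 of the 10 genes and 717 higher and 719 lower genes in all were called, and DESeq2's Wald test called 262 higher and 322 lower. With library size alone the numbers were 159 higher and 82 lower. It also moved the median of the eIF2 list to 0.0314 and that of the tRNA synthetases to -0.0252. Without 1 library in turn, the list medians were between -0.13 and 0.0637 for amino acid transport and synthesis, -0.25 and -0.15 for ER chaperones, 0.37 and 0.54 for immediate-early genes, -0.41 and 0.15 for glucocorticoid-responsive genes, and -0.0046 and 0.165 for hypoxia-responsive genes. The cause of these shifts was not tested.
The deviations from the group means had correlations of 0.0231, 0.00916 and 0.00544 between CTRL and RbpjΔEC mice of replicates 1 to 3. With 3 mice per group, these values cannot settle whether the replicate numbers pair the mice. With the replicate number as a block, 166 genes were called higher and 178 lower, and 2 of the 10 genes passed, as without it. Of the immediate-early list, 11 genes were called higher with the block and 6 without it. Pdia3 did not pass with the block (adjusted p = 0.0517 from edgeR). With 3 mice per group, both calls among the 10 genes were lost in 4 of the 6 fits that left out 1 mouse, while counting error was at most 5.13% of the mean count of any of them.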
